A study of Mus musculus with 12 samples.

Results

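Complement is a cascade of plasma and cell-surface proteins that tags cells, debris and microbes for removal. The classical pathway starts when C1q, with its proteases C1r and C1s, binds a target and cuts C4 and C2. The alternative pathway amplifies C3 cleavage through factor B, and the fragment C3a signals to cells through its receptor C3aR. Plasma complement comes largely from the liver, C1q is made mainly by macrophages and related myeloid cells, and kidney tubule cells can make C3 during injury. The data described here are the kidney transcript levels of 9 genes of this system, which were chosen by symbol from the 35275 genes of the series: *C1qa*, *C1qb*, *C1qc*, *C1ra*, *C2*, *C4b*, *C3*, *Cfb* and *C3ar1*. Each symbol was matched by its row with the most counts, all 9 were found, and all 9 passed the filter on weakly expressed genes in every comparison.

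The mice were C57BL/6J, 6 months old, in 3 groups of 4 with 2 females and 2 males in each. WT mice were unaltered. RC/RC mice were homozygous in the germline for a hypomorphic missense allele of *Pkd1*, the gene most often mutated in human autosomal dominant polycystic kidney disease, and develop slowly enlarging cysts. The RC/RC:*Casp1*KO mice carried the same *Pkd1* alleles and, on both copies of *Casp1*, a small TALEN-made deletion at the end of an exon that removes the active site and a splice donor of Caspase-1, the protease activated by the inflammasome. All RC/RC:*Casp1*KO mice descended from 1 such deletion, the loss is global, and no group had the *Casp1* deletion without the *Pkd1* alleles. The columns name the group of each library but not its sex or replicate number, so mice are numbered 1 to 4 within a group in the order of the columns, and sex is part of the spread within each group. Between 18019819 and 24869454 reads were counted on genes in each library. Levels of 1 gene across mice are given as CPM (counts scaled to a common library size, with TMM factors), and levels of different genes are compared as FPKM (counts scaled by gene length and library size), computed from the counts and the gene lengths. The groups answer whether complement transcripts differed in cystic kidneys and whether they differed again when Caspase-1 was missing.

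The labels were checked first. *Casp1* was at 0.38, 0.66, 0.66 and 1.05 CPM in RC/RC:*Casp1*KO mice 1 to 4, at 2.62 to 4.26 CPM in RC/RC mice and at 1.29 to 2.06 CPM in WT mice. All 4 RC/RC:*Casp1*KO mice therefore lay below all mice of the other groups. *Pkd1*, whose RC allele is a single amino acid change, was counted in every mouse at 40.4 to 86.1 CPM, which does not test the genotype. The tubule markers *Slc34a1* and *Umod* were abundant in every group, with group means from 3585 to 5842 CPM and from 2850 to 3949 CPM. Libraries that stood apart were noted before the comparisons. Mouse 4 of the RC/RC:*Casp1*KO group stood apart from RC/RC:*Casp1*KO mice 1 to 3 for the C1q chains, *C3*, *C4b* and *C3ar1*, and RC/RC mouse 2 carried fat-cell transcripts, so calls that changed without them are given both ways. Both exclusions were chosen after the values were seen.

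The promoter sequences of members that moved together are shown because the 3 C1q chains, *C3*, *C1ra* and *C3ar1* were all upregulated in RC/RC kidneys. RefSeq promoters (GRCm38.p6, the mm10 build the submitters name) were at hand for 5 of the 9 members: *C1qb*, *C1qc*, *C1ra*, *C3* and *C3ar1*. The 250 bases before the RefSeq start are printed 5′ to 3′ on the gene's own strand, for the 3 of these whose window lies wholly outside the gene as the deposited table bounds it, with motif matches in capitals.
*C3*, chr17:57228137-57228386, minus strand: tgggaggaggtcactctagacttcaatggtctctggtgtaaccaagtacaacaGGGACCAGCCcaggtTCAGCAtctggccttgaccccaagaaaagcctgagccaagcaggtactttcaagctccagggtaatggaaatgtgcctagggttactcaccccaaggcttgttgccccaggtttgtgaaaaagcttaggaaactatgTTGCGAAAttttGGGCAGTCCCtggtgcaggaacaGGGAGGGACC
*C1qb*, chr4:136886201-136886450, minus strand: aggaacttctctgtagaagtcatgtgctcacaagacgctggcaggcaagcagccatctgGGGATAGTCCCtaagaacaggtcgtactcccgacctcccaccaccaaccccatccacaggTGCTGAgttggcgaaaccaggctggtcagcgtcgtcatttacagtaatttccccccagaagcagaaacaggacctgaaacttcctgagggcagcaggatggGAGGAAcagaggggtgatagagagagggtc
*C1ra*, chr6:124512371-124512620, plus strand: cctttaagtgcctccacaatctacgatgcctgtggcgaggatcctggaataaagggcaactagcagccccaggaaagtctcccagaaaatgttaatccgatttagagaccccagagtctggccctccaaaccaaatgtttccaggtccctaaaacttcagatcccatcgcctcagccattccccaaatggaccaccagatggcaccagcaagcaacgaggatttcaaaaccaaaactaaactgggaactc
Motifs were searched on both strands. The *C3* window held the NF-kB pattern GGGANNNNCC at 3 places and the C/EBP pattern TTGCNNAA once, starting 45 bases before the start, and these patterns occur in 17.6% and 9.56% of 32851 promoters of the same length. It also held the MAF half-site TGCTGA, found in 16.1% of promoters. In the *C1qb* window the NF-kB pattern matched at 2 overlapping positions, 1 on each strand, and the PU.1 pattern GAGGAA, found in 23.3% of promoters, matched 30 bases before the start, with 1 MAF half-site. The *C1ra* window held none of the 6 patterns. *C1qc* had 1 NF-kB and 1 PU.1 match and *C3ar1* 1 MAF half-site, and the interferon patterns GAAANNGAAA and TTCNNNGAA, found in 2.98% and 7.02% of promoters, were in none of the 5 windows. These matches describe letters in the windows and not bound factors.

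The chromosome positions (mm10) group several members. *C1qb* (chr4:136880129-136886187), *C1qc* (chr4:136889804-136893065) and *C1qa* (chr4:136895917-136898803) lie side by side on the minus strand within 18675 bases. *Cfb* (chr17:34856374-34862518) ends 85 bases from *C2* (chr17:34862604-34898265) on the minus strand, with *C4b* (chr17:34728380-34743882) nearby in the class III region of the major histocompatibility complex. *C3* is at chr17:57203970-57228136, *C3ar1* at chr6:122847138-122856161 and *C1ra* at chr6:124512632-124523440. Some counts could be split with neighbours or copies, since the counting tool and its use of strand are not given in the sources used here. *C4a* is 95.3% identical to *C4b* over 3257 bases and held 321 counts in all 12 libraries against 9715 on *C4b*. *C1rb* is 97.9% identical to *C1ra* over 2432 bases and held 7 counts against 7111. The transcript *Gm20547*, which runs through *Cfb* and *C2* on their strand, held 0 counts, and *Cfb* shares 501 bases with its neighbour *Nelfe*.

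Per length, the C1q chains had the highest mean levels of the 9 in every group. In WT kidneys the mean FPKM was 20.2 ± 5.47 for *C1qa*, 18.6 ± 4.63 for *C1qb* and 13.3 ± 4.09 for *C1qc* (SD, n = 4 mice each), and the ranges of these chains overlapped. A lower tier followed, with 6.69 ± 1.04 for *C1ra*, 6.40 ± 0.625 for *Cfb* and 5.50 ± 2.67 for *C3*, also overlapping. *C2* was at 3.16 ± 0.449 FPKM and *C4b* at 1.91 ± 1.12 FPKM, and *C3ar1*, the receptor, was lowest at 0.41 ± 0.13 FPKM and lay below every other member in every WT mouse. In RC/RC kidneys *C3* moved into the upper tier, at 41.4 ± 11.6 FPKM, a range that overlapped that of *C1qc* at 46.5 ± 6.64 FPKM and exceeded that of *C1ra* at 15.4 ± 4.78 FPKM. *C4b* moved above *Cfb* and *C2*, at 9.66 ± 1.97 FPKM against 4.22 ± 1.602 and 4.00 ± 0.693 FPKM, with no overlap. *C3ar1* stayed lowest, at 1.97 ± 0.280 FPKM.

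**Figure D1:**
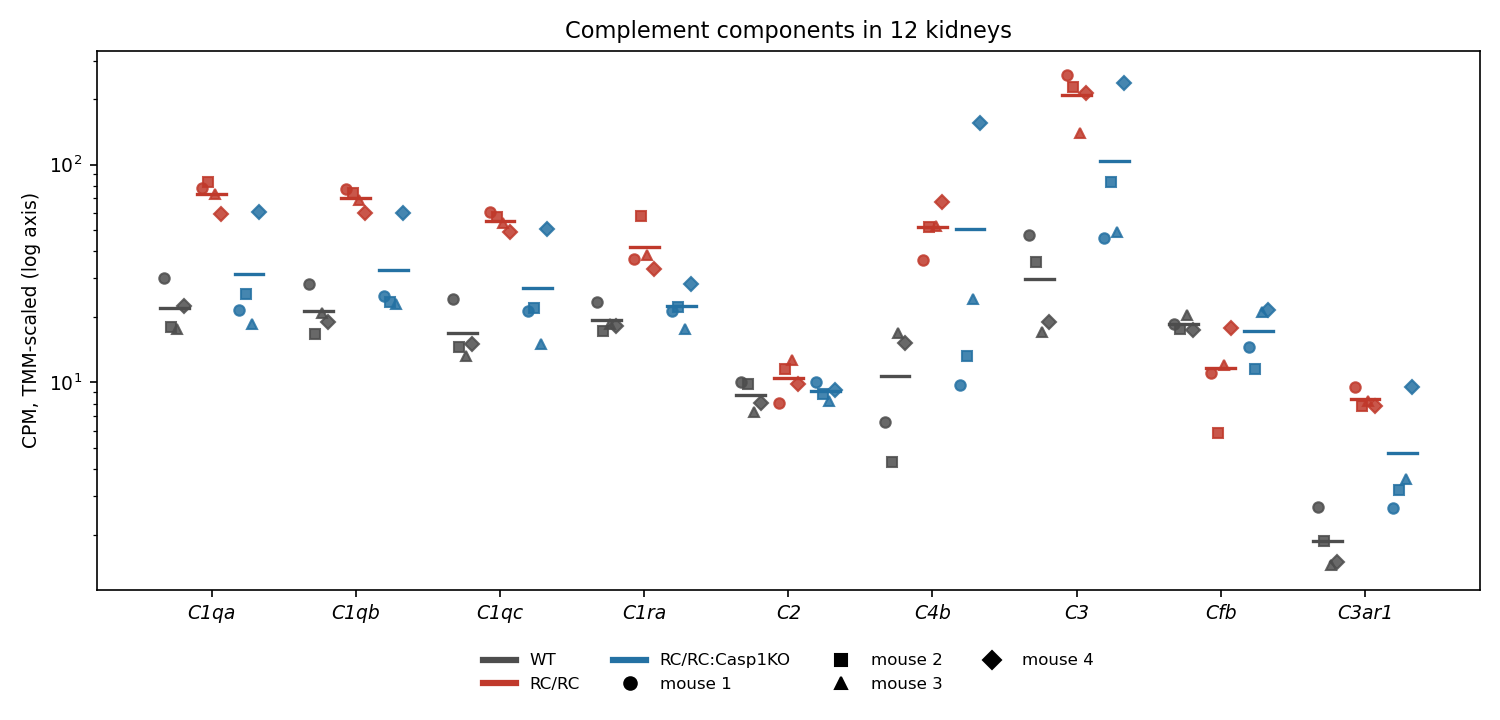
Level of each of the 9 complement components in each kidney, in TMM-scaled CPM on a log axis, with 1 symbol per mouse, 1 colour per group and a bar at the group mean. The 4 RC/RC mice lie above all WT mice for 7 genes and overlap them for *C2* and *Cfb*, and RC/RC:*Casp1*KO mouse 4 (diamond) lies above RC/RC:*Casp1*KO mice 1 to 3 for 8 of the 9 genes, all but *C2*.

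In RC/RC kidneys 7 of the 9 components were upregulated relative to WT, and none was lower, at an edgeR adjusted p under 0.05. Among all 15243 genes tested, 9.76% were called higher and 3.18% lower. The median log2 fold change of the 9 was 1.72, beside −0.02 for all genes tested. *C1qa*, *C1qb*, *C1qc*, *C1ra*, *C4b*, *C3* and *C3ar1* changed, in every case with no overlap between the groups, which held in the higher direction for 12.7% of all genes tested. *C2* and *Cfb* did not pass. Without RC/RC mouse 2 the same count, 7, was called, beside 6.45% of genes called higher.

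C1q, the recognition unit of the classical pathway, is built from equal numbers of A, B and C chains. *C1qa* was at 30.1, 18.1, 17.6 and 22.5 CPM in WT mice 1 to 4 and at 78.3, 83.4, 73.0 and 59.4 CPM in RC/RC mice 1 to 4. *C1qb* ranged from 16.8 to 28.3 CPM in WT and from 59.9 to 77.4 CPM in RC/RC, and *C1qc* from 13.2 to 24.3 and from 49.0 to 60.3 CPM. The lowest RC/RC mouse was thus well above the highest WT mouse for each chain. The log2 fold changes were 1.73, 1.72 and 1.71, with standard errors of 0.19, 0.17 and 0.19 and edgeR adjusted p-values of 0.000688, 0.000406 and 0.000708. The chains kept close proportions within each mouse. Across the 12 kidneys the FPKM of *C1qa* was 0.846 to 1.24 times that of *C1qb* (mean 1.06), and that of *C1qc* 0.572 to 0.842 times (mean 0.723), with group means of the second ratio at 0.714 in WT, 0.714 in RC/RC and 0.742 in RC/RC:*Casp1*KO. These ratios rest on the gene lengths of the table and are a description.

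*C1ra* encodes C1r, the protease that C1q binding activates and that in turn cuts C1s. It was at 23.4, 17.2, 18.6 and 18.1 CPM in WT mice and at 36.8, 58.3, 38.4 and 33.1 CPM in RC/RC mice. RC/RC mouse 2 was highest, and the groups did not overlap without it. The log2 fold change was 1.10 (standard error 0.19, edgeR adjusted p = 0.00607), the smallest of the 7. *C1s1*, the partner protease and not one of the 9, was called too, at a log2 fold change of 1.51 (standard error 0.21, edgeR adjusted p = 0.00253).

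*C4b* encodes C4, the first substrate of C1s. WT mice were at 6.60, 4.31, 16.8 and 15.2 CPM and RC/RC mice at 36.5, 51.7, 52.1 and 67.1 CPM, so the lowest RC/RC mouse was still above the highest WT mouse although WT mice spread widely. The log2 fold change was 2.26 (standard error 0.41, edgeR adjusted p = 0.00763). In the fit of all 12 mice, which includes RC/RC:*Casp1*KO mouse 4, the edgeR adjusted p was 0.0659. *C2*, which encodes the partner of C4 in the classical C3 convertase, was at 9.999, 9.81, 7.29 and 8.06 CPM in WT and at 8.03, 11.5, 12.6 and 9.88 CPM in RC/RC mice. Those ranges overlapped, and the log2 fold change of 0.25 did not pass (standard error 0.18, edgeR adjusted p = 0.382).

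*C3*, the protein on which all pathways converge, had the largest fold change of the 9. WT mice were at 47.4, 35.7, 17.1 and 18.9 CPM and RC/RC mice at 257, 226, 139 and 213 CPM. The log2 fold change was 2.81 (standard error 0.35, edgeR adjusted p = 0.00133), or 7.003-fold. *Cfb*, factor B of the alternative C3 convertase, went in the other direction without passing. It was at 18.6, 17.5, 20.5 and 17.5 CPM in WT mice and at 11.01, 5.89, 11.98 and 17.7 CPM in RC/RC mice. RC/RC mouse 4 overlapped the WT range, and the log2 fold change of −0.67 had a standard error of 0.27 and an edgeR adjusted p of 0.134. Without RC/RC mouse 4 the log2 fold change was −0.95 and passed (adjusted p = 0.0261). *C3ar1*, the C3a receptor of myeloid cells, was the lowest member but one of the most separated. WT mice held 2.68, 1.87, 1.45 and 1.499 CPM and RC/RC mice 9.58, 7.84, 8.20 and 7.82 CPM, a log2 fold change of 2.15 (standard error 0.23, edgeR adjusted p = 0.000603).

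**Figure D2:**
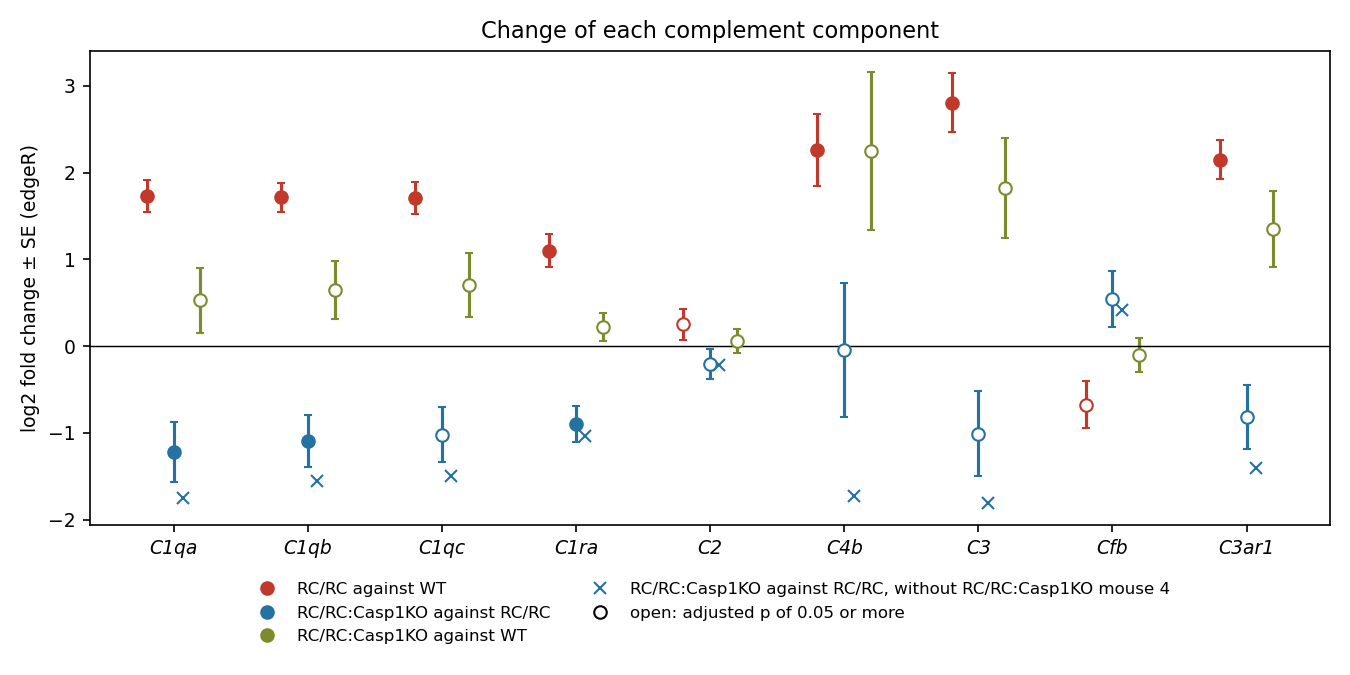
Log2 fold change of each component in the 3 pairwise comparisons of 4 mice against 4, with bars of 1 standard error. Filled points passed an edgeR adjusted p of 0.05, and open points did not. Crosses give RC/RC:*Casp1*KO against RC/RC without RC/RC:*Casp1*KO mouse 4, left out after its values were seen, where *C4b* moves from −0.05 to −1.73.

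With *Casp1* also disrupted, 3 of the 9 components, *C1qa*, *C1qb* and *C1ra*, were downregulated relative to RC/RC, and none was higher, at an edgeR adjusted p under 0.05. Of all 15428 genes tested, 4.41% were called lower and 7.23% higher. The median log2 fold change of the 9 was −0.90, beside −0.03 for all genes. The count depended on single mice. Without RC/RC:*Casp1*KO mouse 4 it was 7 of 9, beside 4.42% of genes called lower, and the 7 were the C1q chains, *C1ra*, *C4b*, *C3* and *C3ar1*, which were also the 7 upregulated in RC/RC *vs.* WT. RC/RC mice are shared by both comparisons, so the 2 sets of calls are not independent. RC/RC:*Casp1*KO mouse 4 was left out after it was seen to be high for the C1q chains, *C3*, *C4b* and *C3ar1*. Lower values and smaller p-values for these genes in that fit follow in part from this choice and are not a separate test. Without RC/RC mouse 2 or 3, or RC/RC:*Casp1*KO mouse 1, 2 or 3, the count was 0, and without RC/RC mouse 1 or 4 it was 1. The share of all genes called lower moved as well, to 0.864% and 0.411% without RC/RC mouse 2 or 3, to 0.505%, 0.369% and 0.83% without RC/RC:*Casp1*KO mouse 1, 2 or 3, and to 8.3% and 5.71% without RC/RC mouse 1 or 4.

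Within the RC/RC:*Casp1*KO group mouse 4 alone lay well above the others for the C1q chains. *C1qa* was at 21.6, 25.5 and 18.5 CPM in RC/RC:*Casp1*KO mice 1 to 3 and at 60.7 CPM in mouse 4, and RC/RC mice were at 59.4 to 83.4 CPM. *C1qb* was at 25.1, 23.5, 22.9 and 60.2 CPM and *C1qc* at 21.4, 21.9, 15.1 and 50.4 CPM in the same order. Mouse 4 was inside the RC/RC range for each chain, and the other 3 mice were inside the WT range. The log2 fold changes against RC/RC were −1.22, −1.09 and −1.02 (standard errors 0.34, 0.30 and 0.32), with edgeR adjusted p-values of 0.0492, 0.0465 and 0.0654. Without mouse 4 they were −1.75, −1.56 and −1.503, with adjusted p-values of 0.00448, 0.00352 and 0.00571. The calls of *C1qa* and *C1qb* were lost without RC/RC mouse 2 (log2 fold changes −1.13 and −1.04, adjusted p-values 0.119 and 0.109). Of the 8 fits that left out 1 mouse, each of these genes was called in 1, the fit without RC/RC:*Casp1*KO mouse 4.

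For *C3* as well, RC/RC:*Casp1*KO mouse 4 lay above mice 1 to 3. Mice 1 to 3 held 46.0, 83.2 and 48.9 CPM and mouse 4 held 237 CPM, within the RC/RC range of 139 to 257 CPM. The log2 fold change against RC/RC was −1.01 (standard error 0.49, edgeR adjusted p = 0.193), and −1.81 without mouse 4 (adjusted p = 0.0113). *C3ar1* was at 2.65, 3.23, 3.60 and 9.50 CPM, and its log2 fold change of −0.82 (adjusted p = 0.165) became −1.40 without mouse 4 (adjusted p = 0.00751). *C4b* was the extreme case, at 9.77, 13.3 and 24.2 CPM in mice 1 to 3 and at 155 CPM in mouse 4, above every RC/RC mouse. Its log2 fold change was −0.05 with all mice (standard error 0.77, adjusted p = 0.973) and −1.73 without mouse 4 (adjusted p = 0.0210).

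*C1ra* was the single member whose groups did not overlap in this comparison, as held in the lower direction for 9.18% of all genes tested. All RC/RC:*Casp1*KO mice, at 21.2, 22.2, 17.6 and 28.4 CPM, were below the lowest RC/RC mouse at 33.1 CPM, and the log2 fold change was −0.90 (standard error 0.20, edgeR adjusted p = 0.0276). It did not pass without RC/RC mouse 2 (log2 fold change −0.66, adjusted p = 0.0508). Of the 8 fits that left out 1 mouse, *C1ra* was called in 3. *C2* was at 10.1, 8.87, 8.20 and 9.27 CPM and *Cfb* at 14.5, 11.5, 21.1 and 21.5 CPM in RC/RC:*Casp1*KO mice. Neither passed, with log2 fold changes of −0.21 (standard error 0.17) and 0.55 (standard error 0.32), and mouse 4 did not stand apart for either.

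Relative to WT, none of the 9 components passed in RC/RC:*Casp1*KO kidneys with edgeR, where 2.03% of 15346 genes were called. At an unadjusted p under 0.05 there were 3, *C3*, *C4b* and *C3ar1*, and DESeq2 called 1, *C3ar1* (adjusted p = 0.0369), all in the higher direction, where these rules took 11.8% and 4.44% of all genes. *C3* had a log2 fold change of 1.82 (standard error 0.57, edgeR adjusted p = 0.134), *C4b* 2.25 (standard error 0.91, adjusted p = 0.199) and *C3ar1* 1.35 (standard error 0.44, adjusted p = 0.139). These estimates were smaller without mouse 4, at 1.00, 0.55 and 0.75. For the C1q chains the log2 fold changes were 0.53, 0.64 and 0.71 with all mice and −0.01, 0.17 and 0.21 without it, and none passed in either fit. A p that missed the threshold does not show that the groups were alike.

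Mouse 4 of the RC/RC:*Casp1*KO group also differed from mice 1 to 3 in injury markers and in some myeloid markers. It lay within the range of mice 1 to 3 for *Csf1r*, at 109.5 CPM, and for *Mertk*, at 60.4 CPM. *Havcr1*, which encodes the tubule injury protein KIM-1, was at 41.9 CPM in it and at 6.27, 13.0 and 6.09 CPM in the other 3, beside 40.3 to 86.7 CPM in RC/RC and 0.48 to 2.87 CPM in WT mice. *Lcn2*, which encodes the injury protein NGAL, was at 62.1 CPM in it and at 4.65 to 12.7 CPM in the other 3. *Casp1* in this mouse, at 1.05 CPM, was below every RC/RC mouse, so its library does not go against its label. The summed level of 5 injured tubule markers was 166 CPM in mouse 4, 31.7 to 48.9 CPM in RC/RC:*Casp1*KO mice 1 to 3, 152 to 252 CPM in RC/RC and 17.1 to 26.2 CPM in WT mice. All 5 rose in RC/RC *vs.* WT, beside 9.76% of all genes. Relative to RC/RC 0 of 5 passed in RC/RC:*Casp1*KO with edgeR, while 4 were lower at an unadjusted p under 0.05 and 1 with DESeq2. Among all genes 4.41%, 16.4% and 8.12% were lower by these 3 rules. Without mouse 4, 5 of 5 were lower in RC/RC:*Casp1*KO with edgeR, beside 4.42% of all genes. The part of injury in the complement levels was not tested.

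The other genes of the pathway came from a list of 46 further complement genes, of which 44 were in the table. In RC/RC *vs.* WT 31 were tested, and 12 were higher and 0 lower with edgeR (18 and 0 at an unadjusted p under 0.05, 16 and 0 with DESeq2). Among all genes 9.76% were higher with edgeR, 17.3% at an unadjusted p under 0.05 and 10.9% with DESeq2. Their median log2 fold change was 0.71. Without RC/RC mouse 2, 9 of 32 were higher, beside 6.45% of all genes. Against RC/RC, 1 was higher and 5 were lower in RC/RC:*Casp1*KO of 32 tested, beside 7.23% and 4.41% of all genes. Without RC/RC:*Casp1*KO mouse 4 these counts were 1 and 11, beside 719 of 15569 genes higher and 4.42% lower. They were 0 and 2 without RC/RC mouse 2, beside 618 of 15732 genes higher and 0.864% lower. Against WT, 0 of 31 passed in RC/RC:*Casp1*KO (8 higher at an unadjusted p under 0.05, 2 with DESeq2), beside 11.8% and 4.44% of all genes by the latter rules.

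Among regulators that restrain the cascade, *Serping1*, the C1 inhibitor, rose from a mean of 61.9 to 230 CPM (log2 fold change 1.89, edgeR adjusted p = 0.00231) and was at 93.2 CPM in RC/RC:*Casp1*KO kidneys (log2 fold change −1.31 against RC/RC, adjusted p = 0.0194). *Cfi*, factor I, rose in RC/RC by 1.63 on the log2 scale (adjusted p = 0.00860) and did not pass in RC/RC:*Casp1*KO relative to RC/RC (log2 fold change −0.51, adjusted p = 0.278). Membrane regulators protect host cells. *Cd55*, *Cr1l*, *Cd59a* and *Cd59b* did not pass in any of the comparisons, and *Cd46* was the single listed gene called higher in RC/RC:*Casp1*KO relative to RC/RC, from a mean of 0.71 to 1.795 CPM (log2 fold change 1.32, adjusted p = 0.0287), a call lost without RC/RC mouse 2 (adjusted p = 0.0522). *Clu*, clusterin, did not pass in RC/RC *vs.* WT (log2 fold change 0.67, adjusted p = 0.148).

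Initiators of the lectin pathway were scarce, with *Mbl1*, a mannose-binding lectin, at group means of 3.06 to 3.94 CPM. *Masp1*, its protease, was called higher in RC/RC (log2 fold change 1.66, adjusted p = 0.0221), a call lost without RC/RC mouse 2 (adjusted p = 0.0648). *Colec11*, a collectin, was lower in RC/RC:*Casp1*KO than in RC/RC, with no overlap (1.00 to 1.41 *vs.* 2.15 to 4.42 CPM, log2 fold change −1.46, adjusted p = 0.0152). Among terminal components *C7* rose from a mean of 8.97 to 33.4 CPM (log2 fold change 1.89, adjusted p = 0.0122) and *C9* was called from group means under 1 CPM (adjusted p = 0.0289), a call lost without RC/RC mouse 2 (adjusted p = 0.0702). *C8a* and *C8g* did not pass. *Hc*, the mouse name of *C5*, was nearly absent, with 0 CPM in every WT mouse and 2.05 CPM at most, in RC/RC:*Casp1*KO mouse 4. Properdin (*Cfp*), which stabilises the alternative convertase, rose in RC/RC (log2 fold change 1.21, adjusted p = 0.00901) and not in RC/RC:*Casp1*KO relative to RC/RC (log2 fold change −0.06, adjusted p = 0.875). Among receptors *Itgam* and *Itgb2*, the chains of complement receptor 3, rose in RC/RC by 1.76 and 1.38 on the log2 scale (adjusted p = 0.000688 and 0.000760), while *C5ar1*, a C5a receptor, did not pass (log2 fold change 0.71, adjusted p = 0.159).

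**Figure D3:**
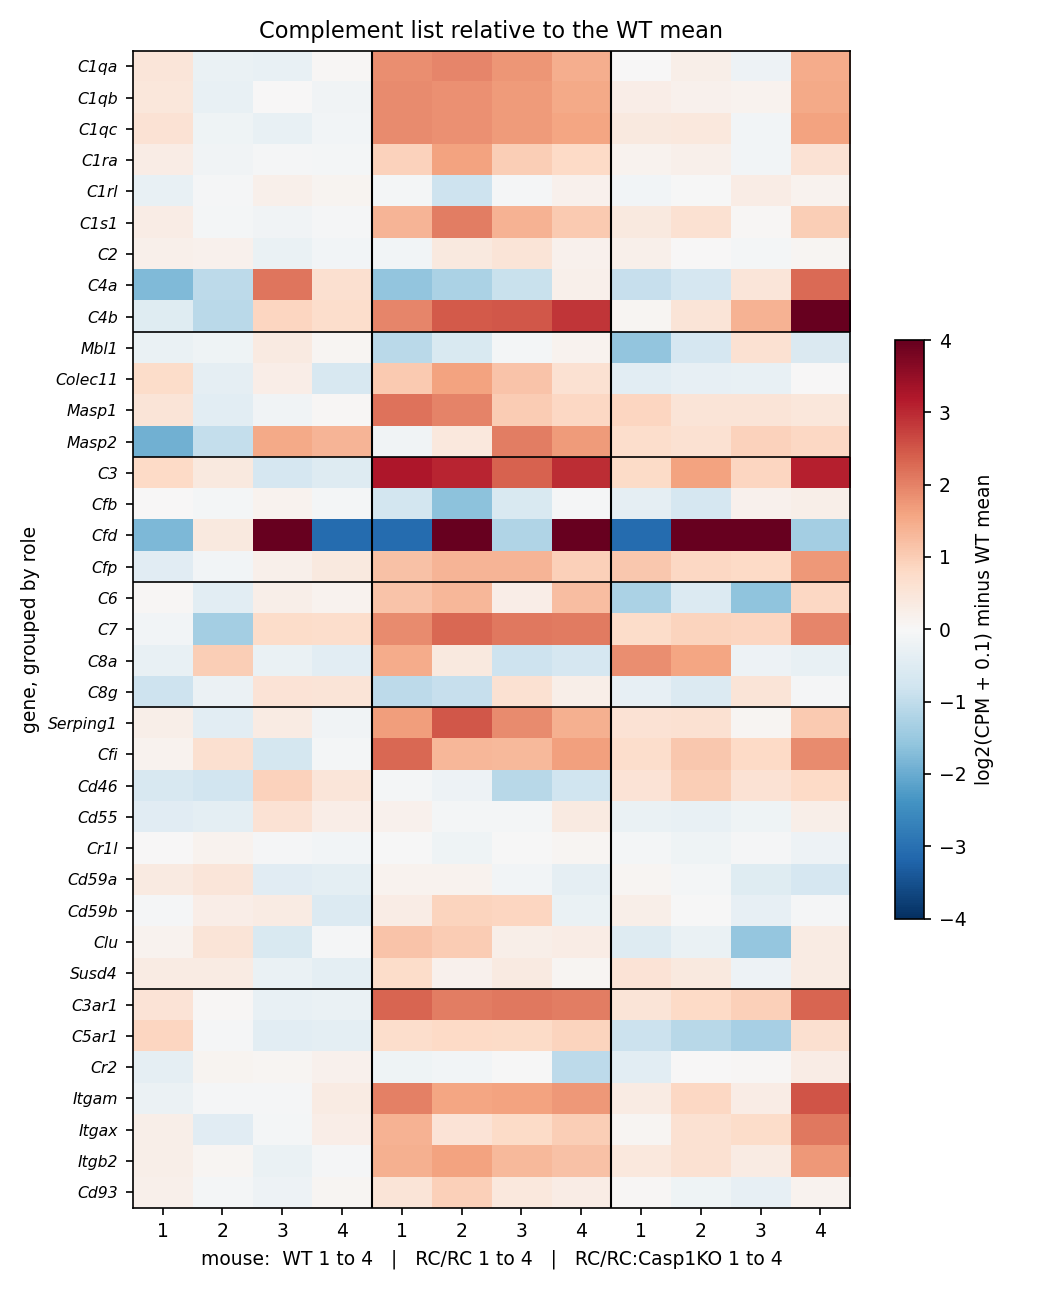
Heat map of complement genes with a mean of at least 1 CPM, other than those not reported here, grouped by role, for each of the 12 mice. Colour gives log2(CPM + 0.1) minus the WT mean, with the scale ending at 4 in each direction, which *Cfd* exceeds, as does *C4b* in RC/RC:*Casp1*KO mouse 4. RC/RC mice 1 to 4 and RC/RC:*Casp1*KO mouse 4 are red for the C1q chains, *C3* and *C4b*.

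*Cfd*, factor D, the protease that cuts factor B, is made mainly by fat cells, and its level followed fat-cell transcripts. It was at 1014 CPM in RC/RC mouse 2, 103 CPM in RC/RC mouse 4, 36.2 and 16.0 CPM in RC/RC:*Casp1*KO mice 2 and 3, 19.0 CPM in WT mouse 3 and at most 1.01 CPM in the other 7 mice. *Adipoq*, the fat-cell hormone adiponectin, was at 99.2, 11.6, 5.17, 3.99 and 3.20 CPM in those 5 mice and at most 0.14 CPM elsewhere. The 5 fat-cell markers, chosen after the values were seen, summed to 386 CPM in RC/RC mouse 2 and to 43.6 CPM or less in the other mice, with *Cidec* the most abundant in RC/RC mouse 2. *Cfd* did not pass in any comparison, and the part of attached fat in these levels was not tested.

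Macrophage markers were read beside the members. Of 9 macrophage markers 7 rose in RC/RC *vs.* WT, beside 9.76% of all genes, among them *Lyz2* (log2 fold change 2.54), *Cx3cr1* (1.99) and *Cd68* (1.68), while *Csf1r* (0.50) and *Mertk* (−0.52) did not pass with edgeR and DESeq2 called 1 marker lower. Their summed level was 178 to 193 CPM in WT, 317 to 434 CPM in RC/RC, 215 to 288 CPM in RC/RC:*Casp1*KO mice 1 to 3 and 382 CPM in RC/RC:*Casp1*KO mouse 4, and no marker was at 0. The most abundant marker was *Lyz2* in RC/RC mice and in RC/RC:*Casp1*KO mouse 4, *Csf1r* in RC/RC:*Casp1*KO mice 1 to 3, and *Csf1r* or *Mertk* in WT mice. Of the 9, 1 was lower in RC/RC:*Casp1*KO than in RC/RC, *Cd14*, which did not pass without RC/RC mouse 2 (adjusted p = 0.0699), and 6 of 9 were lower without RC/RC:*Casp1*KO mouse 4, beside 4.41% and 4.42% of all genes in these fits. Against WT 0 of 9 passed with edgeR, 7 were higher at an unadjusted p under 0.05 and 5 with DESeq2, beside 11.8% and 4.44% of all genes by the latter rules. These are bulk libraries, in which more cells of a type and more RNA per cell cannot be told apart.

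Each member was therefore also set beside these markers, as its log2 CPM minus the mean log2 CPM of the 9 markers in the same mouse. None of the 27 exact two-sided permutation tests passed after adjustment, and with 4 mice against 4 the smallest p is 0.0286, which gave an adjusted p of 0.0771. In RC/RC *vs.* WT the ratio was higher by 1.45 for *C3* and by 0.74 for *C3ar1*, lower by 1.21 for *C2* and by 2.23 for *Cfb* (each p = 0.0286, exact permutation test, groups not overlapping), and 0.30, 0.28 and 0.30 higher for *C1qa*, *C1qb* and *C1qc*, whose groups overlapped. Against the summed marker level the C1q ratios were 0.78, 0.76 and 0.77 higher, and those groups did not overlap (each p = 0.0286, exact permutation test, adjusted p = 0.0593). In WT kidneys *Csf1r* and *Mertk*, at means of 70.2 and 68.4 CPM, made up most of that sum, and edgeR called neither in RC/RC *vs.* WT. The median log2 fold change of the 9 markers there was 1.68, beside 1.73, 1.72 and 1.71 for *C1qa*, *C1qb* and *C1qc*. By the summed level the *C3ar1* ratio was 1.22 higher and the *C2* ratio 0.73 lower in RC/RC *vs.* WT. Against RC/RC the RC/RC:*Casp1*KO ratio was lower for *C1qa* by 0.81, for *C1qb* by 0.65 and for *C1qc* by 0.61, with all 4 RC/RC:*Casp1*KO mice below all 4 RC/RC mice (each p = 0.0286, exact permutation test, adjusted p = 0.0771). Mouse 4 was on the same side as the other RC/RC:*Casp1*KO mice here, with a *C1qa* ratio of 1.24 beside 1.52 to 1.98 in RC/RC mice. The *C1ra* ratio was 0.32 lower against RC/RC with overlap (p = 0.314, exact permutation test), and 0.50 lower without overlap when the markers were summed (p = 0.0286, exact permutation test). Relative to WT the RC/RC:*Casp1*KO ratios were lower without overlap for *C1qa* by 0.51, for *C1ra* by 0.69 and for *C2* by 0.83 (each p = 0.0286, exact permutation test, adjusted p = 0.0771). The genes themselves were not lower there, with log2 fold changes of 0.53, 0.22 and 0.06, none of which passed. The median log2 fold change of the 9 markers was 1.23. With the markers summed the difference in the *C1qa* ratio was −0.21 and the groups overlapped (p = 0.514, exact permutation test). The summed difference was −0.40 for *C1ra* and −0.54 for *C2* (each p = 0.0286, exact permutation test, adjusted p = 0.0593).

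**Figure D4:**
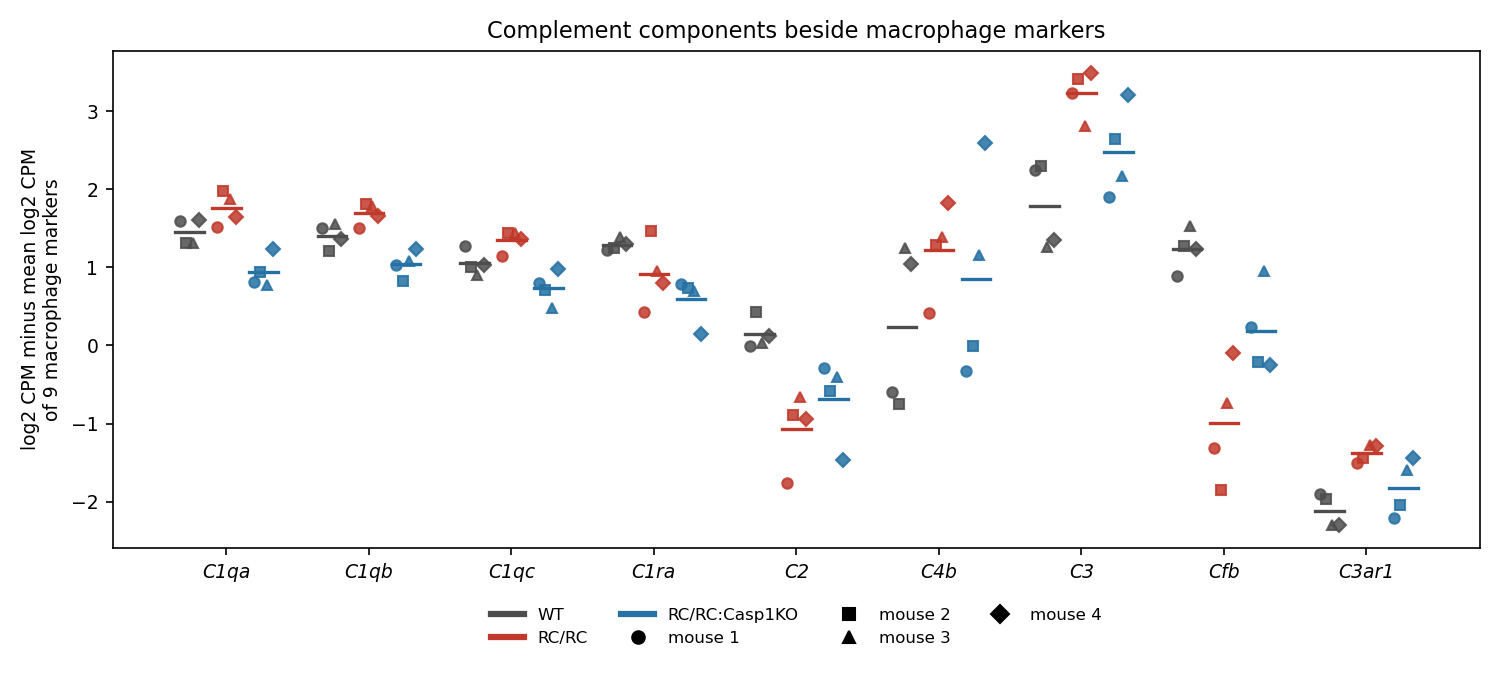
Log2 CPM of each component minus the mean log2 CPM of 9 macrophage markers in the same kidney, with 1 symbol per mouse and a bar at the group mean. The C1q chains lie lower in all 4 RC/RC:*Casp1*KO mice than in the RC/RC mice. The ratios of *C2* and *Cfb* lie lower in the RC/RC than in the WT mice, although their CPM overlapped between these groups.

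Markers of other cells were read beside the members. All 7 fibroblast markers rose in RC/RC *vs.* WT, beside 9.76% of all genes. In RC/RC:*Casp1*KO relative to RC/RC 5 of 7 were lower, beside 4.41% of all genes. These counts were 5 and 1 without RC/RC mouse 2, beside 6.45% and 0.864% of all genes. The fibroblast markers summed to 220 to 310 CPM in WT and 821 to 1885 CPM in RC/RC mice. Their sum was 309 to 464 CPM in RC/RC:*Casp1*KO mice 1 to 3 and 714 CPM in RC/RC:*Casp1*KO mouse 4. The most abundant fibroblast marker was *Col1a2* in WT mice and *Col3a1* in RC/RC mice. The fibroblast sum was highest in RC/RC mouse 2, where *C1ra*, *C1s1* and *Serping1* were also highest. All 4 B-cell markers rose in RC/RC, beside 9.76% of all genes, from sums of 1.78 to 3.35 CPM to 6.26 to 9.10 CPM. Of the 4, 1 fell in RC/RC:*Casp1*KO relative to RC/RC, beside 4.41% of all genes. The 2 counts were 1 and 0 without RC/RC mouse 2, beside 6.45% and 0.864% of all genes. Of 6 hepatocyte markers tested 0 passed in RC/RC *vs.* WT (1 lower at an unadjusted p under 0.05, 0 with DESeq2). In RC/RC:*Casp1*KO *vs.* WT 1 was lower (2 at an unadjusted p under 0.05, 1 with DESeq2). With edgeR 2.03% of all genes were called there in either direction, and without RC/RC:*Casp1*KO mouse 4 the count was 0. *Ahsg* and *Cps1* were at or near 0, and the hepatocyte sum was 70.8 to 192 CPM, with *Ttr* the most abundant in WT mice. Of 6 proximal tubule markers 2 were lower in RC/RC *vs.* WT and 2 higher in RC/RC:*Casp1*KO relative to RC/RC. Of 7 markers of other nephron segments 2 were lower and 1 was higher in these comparisons. Among all genes 3.18% were lower in the first comparison and 7.23% higher in the second. Without RC/RC mouse 2, 1 proximal tubule marker was lower in RC/RC *vs.* WT, beside 273 of 15452 genes. In that mouse's absence 0 of the other nephron markers were higher in RC/RC:*Casp1*KO relative to RC/RC, beside 618 of 15732 genes. The same count was 0 without RC/RC:*Casp1*KO mouse 4, beside 719 of 15569 genes. The part of changes in cell number in the complement levels was not tested.

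Transcription factors known to act on complement genes were listed as well. *Irf8*, *Irf1*, *Stat3* and *Nfkb1* rose in RC/RC *vs.* WT, 4 of 9 tested beside 9.76% of all genes, with log2 fold changes of 1.19, 1.00, 0.53 and 0.56. Against RC/RC 0 of 9 passed with edgeR (6 lower in RC/RC:*Casp1*KO at an unadjusted p under 0.05 and 3 with DESeq2, beside 4.41%, 16.4% and 8.12% of all genes by the 3 rules). Without RC/RC:*Casp1*KO mouse 4, *Irf8* and *Nfkb1* were lower, 2 of 9 beside 4.42% of all genes. *Cebpb*, which encodes a C/EBP factor, was lower in RC/RC:*Casp1*KO than in WT, at 9.25 to 15.3 *vs.* 23.5 to 40.1 CPM (log2 fold change −1.30, edgeR adjusted p = 0.0250).

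Among the members and the genes outside the lists, those with a profile over the 12 kidneys most like that of *C1qa* were its own partners. The root mean square difference in log2 CPM, after centring each gene on its mean, was 0.14 for *C1qc* and 0.17 for *C1qb*. Outside the lists the nearest genes were *Alox5ap* (0.17), *Ctss* (0.20), *C1qtnf6* (0.21), *Cd52* (0.24) and *Mmp14* (0.24). For *C3* the nearest outside the lists were *Scara3* (0.43), *Aoc1* (0.45), *Pcdhb9* (0.46), *Col8a2* (0.47) and *Basp1* (0.48), and *C3ar1* was at 0.46. For *Cfb* the nearest outside the lists were *Enpp2* (0.15), *Ugt3a2* (0.17), *Fam151a* (0.17), *Slc44a4* (0.18) and *Cpt1a* (0.18), while *C3* was at 1.68 from it. *Cfb* and *C3*, which act in the same convertase, thus had the least alike profiles among the pairs computed.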

How the data were processed

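Kidney poly(A) RNA from 12 mice was sequenced and analyzed by Novogene. The submitters' processing notes name CASAVA 1.8, STAR and mm10, and the counting tool, annotation and strand setting are not given in the sources used here. The authors deposited 1 table with the raw count of reads per gene and mouse, without normalization, which is the measurement used here. The gene lengths in base pairs, coordinates and symbols deposited by the authors were also used. Their FPKM, normalized group means, fold changes and p-values were not used. All 12 count columns were mapped to a group, and 0 were left over.

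Each pair of groups was fitted over its 8 mice across all genes by the quasi-likelihood test of edgeR 4.0.16 in R 4.3.3 (TMM, filterByExpr), with Benjamini-Hochberg adjustment and a threshold of 0.05. The study itself used DESeq2. The standard error was taken from the fold change and its quasi-likelihood F. CPM used TMM factors of all 12 libraries, and FPKM divided counts by length and by the reads counted. The fits were tested on simulated data.

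Alternatives were DESeq2 1.42.0, RLE factors, library size alone, no filter, at least 10 counts in every mouse, 1 fit of 12 mice, limma 3.58.1 on log2(FPKM + 1), near copies summed, the summed marker level, and each mouse left out. Near copies were sought with BLAST 2.17.0 (at least 95% identity over 500 bases, GENCODE transcripts).

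The members and lists were chosen with earlier results of these data known. The named genes are *Casp1*, *Pkd1*, the members, the complement, transcription factor and marker lists, and the 5 unlisted genes nearest in profile to *C1qa*, *C3* and *Cfb* among genes with a mean of at least 1 CPM, on log2(CPM + 0.1). Fat-cell genes, *Xist* and *Ddx3y* were added after their values were seen, as was leaving out 2 named mice from list counts. *Adgre1*, *C5* and *Cd55b* by those symbols were not analysed here, and some listed genes enter the list counts but are not reported here. That replicates are separate mice comes from the methods.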

Additional observations from a re-analysis of the deposited data

Results flagged for a closer look

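A library was singled out where its gap to the nearest of its group exceeded Dixon's critical value for 4 samples. Of 114 groups looked at (38 complement genes with a mean of at least 1 CPM, in 3 groups), 13 were singled out. Chance alone gives about 1 in 20 for independent, normally distributed groups. These genes were measured in the same mice, so the 13 are not separate events and that rate does not test them. In RC/RC:*Casp1*KO mouse 4, the highest of its group in each case, there were 8: *C1qa* at 60.7 CPM, *C1qb* at 60.2 CPM, *C4b* at 155 CPM, *C3ar1* at 9.50 CPM, *C7* at 30.1 CPM, *C5ar1* at 3.13 CPM, *Itgam* at 17.6 CPM and *Itgb2* at 22.7 CPM. The other RC/RC:*Casp1*KO mice were at most at 25.5, 25.1, 24.2, 3.60, 14.5, 1.04, 5.46 and 10.4 CPM for these genes. *Cfd* was singled out in 2 mice, at 1014 CPM in RC/RC mouse 2 and at 19.0 CPM in WT mouse 3. The others were *C1qc* in WT mouse 1 at 24.3 CPM, *C8a* in WT mouse 2 at 63.2 CPM and *Masp1* in RC/RC:*Casp1*KO mouse 1 at 1.81 CPM.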

How the results depend on the processing

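The count of 7 upregulated components in RC/RC *vs.* WT stayed between 6 and 7 in the 8 other settings. With single mice omitted 7 to 8 components were called, the eighth being *Cfb*, which was lower in RC/RC without RC/RC mouse 4 (log2 fold change −0.95, adjusted p = 0.0261). The count of 3 downregulated components relative to RC/RC was 0 with library size alone and 0 with limma on log2(FPKM + 1), at most 4 in the other settings, and 0 to 7 over the single omissions. For RC/RC:*Casp1*KO against WT the count of 0 was 1 with DESeq2 and 0 to 0 over the single omissions. Some directions turned, all for log2 fold changes that did not pass. *C4b* against RC/RC was 0.0522 with library size alone and −1.73 to 0.30 over the single omissions. Against WT, *Cfb* was 0.0161 with library size alone and −0.24 to 0.0446 over the single omissions, *C1qa* −0.0117 to 0.72 and *C2* −0.0414 to 0.12. The log2 ratio of *C1ra* to the macrophage markers in RC/RC *vs.* WT was 0.10 with the summed marker level and −0.38 with the mean. The *C1q* ratios were 0.78, 0.76 and 0.77 with the sum in place of 0.30, 0.28 and 0.30, and the other ratios kept their direction. Over the other settings 203 of the fold changes kept their direction and side of the threshold, 9 no longer passed, 2 newly passed and 2 turned. Causes were not tested. Over all genes, called counts against RC/RC were 1797 with TMM, 3182 with DESeq2, 993 with library size alone and 1052 with limma, and against WT 311, 1390, 352 and 327. In RC/RC *vs.* WT DESeq2 called 3018 in place of 1971. With single mice omitted the 3 comparisons called 1162 to 2440, 438 to 2789 and 108 to 547. The share of calls that were higher was 75.4%, 62.1% and 55.9% in the 3 comparisons with TMM, 86.1%, 82.0% and 79.8% with library size alone, 84.2%, 79.5% and 76.1% with limma and 67.5%, 55.5% and 67.9% with all 12 mice in 1 fit, and the median of all genes in RC/RC:*Casp1*KO *vs.* WT shifted from 0.01 to 0.14 with library size alone and to 0.10 with limma. With at least 10 counts in every mouse, 167 genes were called in RC/RC:*Casp1*KO *vs.* WT. No paired analysis was possible because the columns carry no replicate numbers. Precision is limited by 4 mice a group, and for *C3ar1* by 29 to 56 counts per WT library.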

Other observations

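*C4a*, the near copy of *C4b*, was at 0.19, 0.38, 4.30 and 1.45 CPM in WT mice 1 to 4, where *C4b* was at 6.60, 4.31, 16.8 and 15.2 CPM. In RC/RC:*Casp1*KO mice 1 to 4 *C4a* was at 0.42, 0.52, 1.27 and 4.68 CPM, in the order of *C4b*, and in RC/RC mice at 0.23, 0.32, 0.43 and 1.03 CPM. *Xist*, the X-inactivation RNA, was at 278 to 778 CPM in mice 1 and 2 of each group and at 0.82 CPM or less in mice 3 and 4, which instead held the Y-linked *Ddx3y* at 55.5 to 78.5 CPM. The columns give no sex and groups were taken from the labels alone, so no comparison by sex was made.

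The ratio of *C3* to *C1qa* in CPM was 0.840 to 1.98 in WT mice, 1.91 to 3.58 in RC/RC mice and 2.13 to 3.90 in RC/RC:*Casp1*KO mice. The RC/RC:*Casp1*KO mice 1 to 3, whose *C1qa* was in the WT range, therefore held more *C3* per *C1qa* than any WT mouse. This was read off after the values were seen and was not tested.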
